A study of Homo sapiens with 32 samples.

Results

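Antisense RNAs were examined together with the genes they are named after in K-562 cells that had become resistant to BCR-ABL1 inhibitors. An antisense member was a gene whose symbol ends in -AS1, -AS2 or -AS3 and whose sense gene, the symbol before the hyphen, was also measured. Of 475 such antisense genes with a feature on the array, 313 had a measured sense gene and 162 did not. The 313 antisense genes belonged to 302 sense genes, 10 of which had more than 1 antisense member, so the pairs held 615 of the 14884 named genes. The rule used symbols and mean levels only, and no change between groups.

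K-562 is an established line of chronic myeloid leukaemia cells in blast crisis that carries the BCR-ABL1 fusion, and imatinib and nilotinib are inhibitors of that kinase. RNA of 8 sets of cells was measured on 4 technical arrays per set, 32 arrays in all. Treatment-naive cells gave 2 sets, marked S and K by letters that the labels do not explain. Cells resistant to 0.5 µM imatinib (low imatinib), to 2 µM imatinib (high imatinib) and to 0.1 µM nilotinib gave 2 lines each, which the design text describes as biological replicates. Resistance had been raised by stepwise increases of drug in this single parental line, and the growth text gives a medium without either drug for all samples. Whether the naive sets came from separate cultures is not stated, so p-values measure the spread between these sets.

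Natural antisense RNAs are transcripts read from the strand opposite to a gene. Some start close to the sense gene's own start and run the other way from a shared control region, and others start within the sense gene and run back through it. Individual antisense RNAs are known that raise, lower or do not affect their sense gene, and many are kept scarce by the nuclear exosome, which degrades unstable nuclear RNA.

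Start sites of both genes were listed in RefSeq (GRCh38.p14) for 216 of the 313 pairs, and in 0 of them did the genes lie on the same strand. In 63 pairs the start sites lay within 1 kb of each other. In 140 pairs the antisense gene started further along, inside the sense gene or past its end, with overlapping bodies. In 4 pairs it started upstream and overlapped, and in 9 pairs the bodies did not overlap. The remaining 97 pairs could not be classed. No source used here says whether each feature of the array reads 1 strand only, so signal of overlapping partners could not be separated further.

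Promoters of 3 pairs are shown because these pairs stand for the arrangements and outcomes described below. PCED1B-AS1 starts deep inside PCED1B and both fell. ARHGAP5 and ARHGAP5-AS1 start back to back and were high or low in the same sets. WAC and WAC-AS1 also start back to back, with promoter windows that overlap, yet the antisense RNA alone passed the test. Each sequence is the 250 bases before the RefSeq start in GRCh38.p14, on the gene's own strand, and capitals mark CG dinucleotides.
PCED1B, chr12:47079371-47079620, plus strand: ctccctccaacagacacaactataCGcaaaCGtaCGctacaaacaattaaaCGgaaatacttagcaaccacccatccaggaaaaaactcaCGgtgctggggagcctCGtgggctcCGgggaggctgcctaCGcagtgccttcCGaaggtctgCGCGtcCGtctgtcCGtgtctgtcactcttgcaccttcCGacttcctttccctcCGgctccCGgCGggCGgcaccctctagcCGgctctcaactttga
PCED1B-AS1, chr12:47216444-47216693, minus strand: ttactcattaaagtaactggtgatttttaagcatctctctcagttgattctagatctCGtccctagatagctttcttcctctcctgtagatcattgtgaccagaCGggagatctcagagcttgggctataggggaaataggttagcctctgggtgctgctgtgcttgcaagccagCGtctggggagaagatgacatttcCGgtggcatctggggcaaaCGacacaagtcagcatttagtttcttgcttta
ARHGAP5, chr14:32077054-32077303, plus strand: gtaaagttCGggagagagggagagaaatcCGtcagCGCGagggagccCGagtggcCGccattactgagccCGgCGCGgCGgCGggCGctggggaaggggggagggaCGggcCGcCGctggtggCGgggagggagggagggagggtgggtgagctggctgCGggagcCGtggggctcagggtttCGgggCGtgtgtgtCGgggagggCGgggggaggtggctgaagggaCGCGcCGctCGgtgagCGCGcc
ARHGAP5-AS1, chr14:32076700-32076949, minus strand: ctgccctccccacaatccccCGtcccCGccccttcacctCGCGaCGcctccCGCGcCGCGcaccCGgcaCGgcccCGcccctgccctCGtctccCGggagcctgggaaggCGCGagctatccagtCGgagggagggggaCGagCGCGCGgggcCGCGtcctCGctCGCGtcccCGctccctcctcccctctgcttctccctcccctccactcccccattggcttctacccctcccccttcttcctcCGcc
WAC, chr10:28532529-28532778, plus strand: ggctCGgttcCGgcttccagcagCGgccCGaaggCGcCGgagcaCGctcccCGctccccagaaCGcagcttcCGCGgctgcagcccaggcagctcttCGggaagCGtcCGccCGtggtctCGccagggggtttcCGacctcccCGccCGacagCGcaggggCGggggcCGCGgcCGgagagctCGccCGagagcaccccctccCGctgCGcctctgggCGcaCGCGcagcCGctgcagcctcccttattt
WAC-AS1, chr10:28532355-28532604, minus strand: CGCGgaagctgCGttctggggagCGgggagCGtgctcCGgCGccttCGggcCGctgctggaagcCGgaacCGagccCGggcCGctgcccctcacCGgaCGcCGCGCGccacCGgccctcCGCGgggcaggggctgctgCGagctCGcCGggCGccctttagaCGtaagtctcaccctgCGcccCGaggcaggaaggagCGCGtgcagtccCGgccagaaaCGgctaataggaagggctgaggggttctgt

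The PCED1B promoter held 19 CG dinucleotides and that of PCED1B-AS1 held 5. ARHGAP5 and ARHGAP5-AS1 held 28 each, and WAC and WAC-AS1 held 32 each, which 9.26% of all 27305 promoters in the table reached. A promoter entry was found for 243 antisense and 250 sense genes. Median CG counts were 12 for antisense genes, 20 for sense genes and 11 for all promoters. The letters CCAAT, searched on both strands, were found once in the ARHGAP5-AS1 window and in none of the other 5, against 33.0% of all promoters. TATAAA and AGATAA, also searched on both strands, were found in none of the 6, against 11.1% and 9.37% of all promoters.

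Array values are the authors' summarised intensities, taken here as log2, and ran from 1.244 to 14.185. Array medians over all features lay between 5.85 and 6.11, and arrays of the same set correlated with r from 0.952 to 0.991 over the 14884 named genes. The K-562 markers GATA1, KLF1, BCR and TAL1 averaged 9.42, 8.53, 8.09 and 7.34 over the 8 sets. Markers of other blood cells, CD14, MPO, NKG7 and LYZ, averaged 5.62, 5.67, 6.46 and 7.04, and those of epithelial cells and fibroblasts, KRT18, EPCAM, KRT8 and DCN, 9.77, 7.84, 7.60 and 4.26. The first axis of the differences among arrays of the same set, a technical axis holding 16.8% of that variance, had mean scores of -20.8 and -25.1 in naive S and K and from -2.13 to 21.2 in the resistant lines. Across genes its loading correlated with the change from naive to resistant at r = 0.607, and genes are not independent replicates. Its part in the changes below was not tested. Values with the axis taken out are given for the PCED1B pair, the members past the threshold named in full, the counts and the correlations.

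PCED1B, which encodes a protein of the PC-esterase domain family, and PCED1B-AS1, which lies wholly inside the span of PCED1B on chromosome 12, were the single pair in which both genes passed the test against naive cells. PCED1B stood at 7.68 in naive S and 6.85 in naive K. Its values were 5.22 and 5.11 with low imatinib, 5.39 and 5.43 with high imatinib, and 5.41 and 5.40 with nilotinib. Every resistant line was below both naive sets by more than 1 log2 unit.

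PCED1B-AS1 stood at 6.69 and 6.52 in naive S and K. Its values were 5.26 and 5.15 with low imatinib, 5.19 and 4.80 with high imatinib, and 5.30 and 4.88 with nilotinib. Over the 32 single arrays the lowest naive array was 6.39 and the highest of any resistant line was 5.49, so the groups did not overlap.

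**Figure D1:**
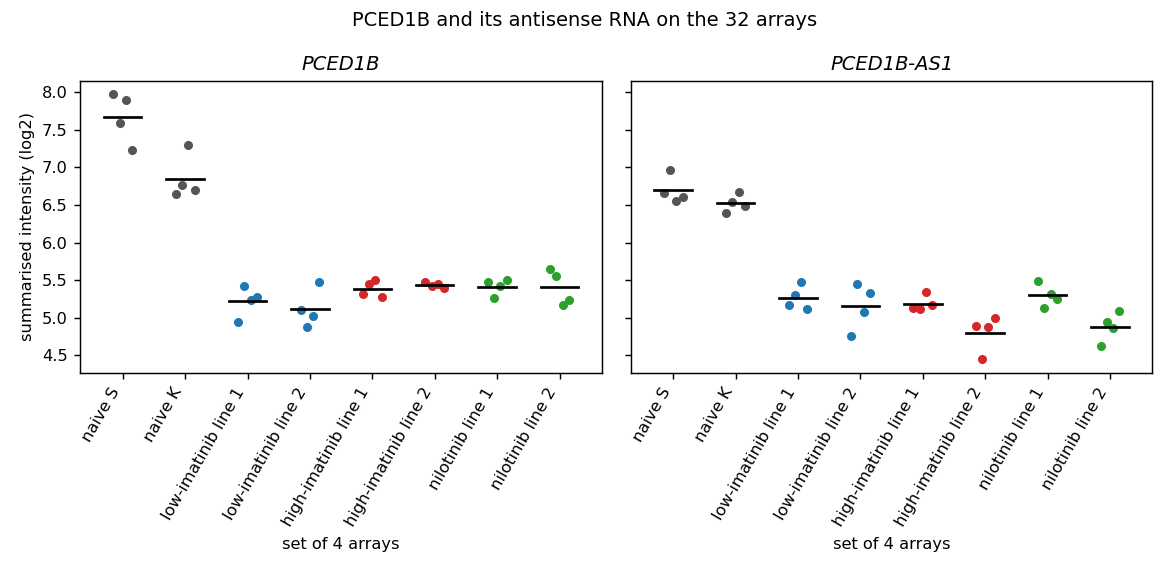
Summarised log2 intensity of PCED1B (left) and PCED1B-AS1 (right) on every array, grouped by set, with a black line at each set's mean. All naive arrays lie above all arrays of the 6 resistant lines for both genes, and naive S lies above naive K for PCED1B.

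Across all 6 resistant lines PCED1B fell by 1.94 ± 0.20 (SE) on the log2 scale, 3.82-fold, and PCED1B-AS1 fell by 1.51 ± 0.16, 2.85-fold (limma on 8 set means, adjusted p = 0.0313 for each over 14884 genes). The levels in the resistant lines lay below the median of every array, and whether they were above background was not tested, so these are folds of measured values and the true falls may be larger. In measured values the antisense RNA changed 0.43 less than the sense gene, with a 95% interval of -0.28 to 1.13 that includes 0 (exact permutation test over the 28 splits of 6 lines against 2 sets, two-sided p = 0.214; the smallest p this design allows is 0.0714). In the single resistances, whose tests share the naive sets, the changes of PCED1B were -2.10, -1.85 and -1.85 for low imatinib, high imatinib and nilotinib, and those of PCED1B-AS1 were -1.40, -1.61 and -1.52. Only the nilotinib values passed, with adjusted p = 0.0460 for each gene by limma. Taking the technical axis out gave falls of 2.06 and 1.61, and both still passed. Without naive S the fall of PCED1B was 1.52 and that of PCED1B-AS1 1.42, neither past the threshold (limma adjusted p = 0.169 for each), and without naive K PCED1B passed and PCED1B-AS1 did not (limma adjusted p = 0.290). Without low-imatinib line 1 or line 2 neither passed (limma adjusted p = 0.0714 and 0.0763).

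Within the 6 resistant lines each gene kept to a narrow band of low values, so little can be read from their order there. Their r over those lines was -0.41, and leaving out the 2 sets farthest from the median of PCED1B-AS1, which are the naive sets, leaves this same value. PCED1B-AS1 was lower in line 2 than in line 1 of high imatinib (by 0.39 ± 0.13 on the log2 scale) and of nilotinib (by 0.42 ± 0.13), while PCED1B differed by 0.05 and -0.01 there. Between the naive sets the reverse held, with PCED1B 0.82 ± 0.15 lower in K (limma on 32 arrays, adjusted p = 0.000499) and PCED1B-AS1 0.18 ± 0.13 lower (adjusted p = 0.417). These tests measure differences against the spread of technical arrays. Ranked by r over the 8 sets, the pattern of PCED1B-AS1 was most like those of SOX12, AMIGO2, NAV2, CLCA1 and AFP, with r from 0.97 to 0.98 over points that share the step from naive to resistant, and PCED1B was at rank 36 of 14883. AFP, the fetal serum protein, fell by 1.45 ± 0.11.

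Over all pairs, 4 antisense genes were higher and 4 lower in the resistant lines at an adjusted p under 0.05, and 74 of 313 (23.6%) had an unadjusted p under 0.05 (limma). Of the 302 sense genes 15 were higher and 1 was lower, with 82 (27.2%) at an unadjusted p under 0.05. Over all 14884 named genes 3.21% were higher and 0.504% lower, and 29.8% had an unadjusted p under 0.05, more than in either class of member. The members' split of 19 higher and 5 lower calls became 7 and 8 with quantile normalization and 40 and 4 with arrays brought to a common median. It was 22 and 1 with the dimmest 40% of genes left out, which kept 290 of the 615 members. Over all genes the 553 calls in either direction became 362, 1677 and 777 in the same order. Taking the technical axis out left 12 calls among all genes and 2 among members, PCED1B and PCED1B-AS1.

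Each set bore on that count of 24 calls. The calls over all genes fell and rose in the same settings, so these swings are not particular to the members. Where the count rose, the share of all genes that passed was larger than the members' share. Each of these fits leaves its group with 1 set. Without naive S there were 0 calls, without naive K 1, and without low-imatinib line 1 or line 2 0 each. Without nilotinib line 1 there were 6 and without nilotinib line 2 14. Without high-imatinib line 1 there were 53 and without high-imatinib line 2 38.

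The higher antisense RNAs were ASB16-AS1, WAC-AS1, ALOX12-AS1 and ZNF674-AS1. ASB16-AS1 stood at 7.07 and 7.04 in the naive sets and at 7.83, 8.28, 8.03, 8.78, 8.33 and 8.40 in the lines in the order low imatinib, high imatinib, nilotinib. It rose by 1.22 ± 0.21 (limma adjusted p = 0.0393), while ASB16, a SOCS-box protein of ubiquitin ligases, changed by -0.07 ± 0.11. The difference between the partners was 1.29, with an interval of 0.52 to 2.07 (exact permutation test, two-sided p = 0.0714, the smallest this design allows). The pair was named because ASB16-AS1 had passed on the same values, which favours a difference away from 0. With the technical axis out the change of ASB16-AS1 was 0.93 and did not pass (limma adjusted p = 0.173).

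WAC-AS1 stood at 6.21 and 6.41 in naive cells and at 7.16, 7.55, 7.63, 7.66, 7.36 and 7.26 in the lines, so the lowest line was above the highest naive set by more than 0.7. It rose by 1.12 ± 0.13 (limma adjusted p = 0.0313). WAC, an adaptor for histone H2B ubiquitination whose start site lies 425 bases from that of WAC-AS1, stood at 8.32 and 8.52 in naive cells and between 8.53 and 8.96 in the lines, a change of 0.21 ± 0.14 that did not pass (adjusted p = 0.331). The partners differed by 0.91, with an interval of 0.47 to 1.35 (exact permutation test, two-sided p = 0.0714, again the smallest possible). As with ASB16-AS1, WAC-AS1 was named for passing on the same values, which favours a difference away from 0. ALOX12-AS1 rose by 0.73 ± 0.14 beside a change of -0.14 ± 0.18 for ALOX12, the platelet-type 12-lipoxygenase. ZNF674-AS1 rose by 0.66 ± 0.11 beside a change of 0.16 ± 0.15 for the zinc finger gene ZNF674. With the technical axis out the changes of WAC-AS1, ALOX12-AS1 and ZNF674-AS1 were 0.89, 0.47 and 0.14, none past the threshold (limma adjusted p from 0.120 to 0.626), and the r of WAC-AS1 with WAC over the 8 sets went from 0.67 to 0.18.

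The lower antisense RNAs beside PCED1B-AS1 were EPHA1-AS1, IRAG1-AS1 and UNC5B-AS1. EPHA1-AS1 fell by 0.62 ± 0.12 (limma adjusted p = 0.0463) from 5.95 and 5.87 in naive cells to between 5.12 and 5.47 in the lines. Its partner EPHA1, an ephrin receptor kinase, changed by -0.22 ± 0.10. IRAG1-AS1 fell by 0.60 ± 0.11 beside -0.29 ± 0.11 for IRAG1, a substrate of cGMP-dependent kinase. UNC5B-AS1 fell by 0.52 ± 0.10, and UNC5B, a netrin receptor, changed by almost the same -0.53 ± 0.21 with a wider error and did not pass (adjusted p = 0.156). With the technical axis out EPHA1-AS1, IRAG1-AS1 and UNC5B-AS1 changed by -0.77, -0.52 and -0.61 and did not pass (limma adjusted p from 0.120 to 0.167). For these 8 antisense genes the partner passed the same test only in the case of PCED1B.

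VAC14, PDCD4 and ARRDC3 rose beside antisense RNAs whose changes lay near 0. VAC14, the scaffold of the PIKfyve lipid kinase complex, stood at 7.82 and 7.39 in naive cells and between 8.72 and 9.31 in the lines. It rose by 1.38 ± 0.20 (limma adjusted p = 0.0335), while VAC14-AS1, wholly inside it, moved between 6.25 and 6.57 over all 8 sets and changed by -0.11 ± 0.12. PDCD4, an inhibitor of translation initiation, rose by 1.19 ± 0.20 beside -0.12 ± 0.13 for PDCD4-AS1. ARRDC3, an alpha-arrestin, rose by 1.15 ± 0.19 beside -0.03 ± 0.11 for ARRDC3-AS1. In each of these 3 pairs the interval of the difference lay wholly below 0. The exact permutation test gave a two-sided p of 0.0714 for each, the smallest this design allows. The pairs were named because the sense gene had passed on the same values, which favours a difference away from 0. With the technical axis out VAC14, PDCD4 and ARRDC3 changed by 1.06, 0.91 and 0.89 and did not pass (limma adjusted p from 0.136 to 0.173).

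The other sense genes that rose were ARHGAP5, MED4 (a Mediator subunit), CCNT2 (cyclin T2 of the elongation factor P-TEFb), RBM26, SMAD5 (an effector of BMP signalling), RBM12B, TMPO (a lamina-associated protein), SPAG5 (a spindle protein), PAXIP1 (a DNA damage response adaptor), ZNF566, UBOX5 and RBM15 (a cofactor of RNA adenosine methylation). Their rises ran from 0.59 to 1.13. RBM12B rose by 0.78 ± 0.13 and its antisense RNA changed by -0.33, and SMAD5 rose by 0.81 ± 0.14 beside -0.47 for SMAD5-AS1. These were the lowest antisense changes beside a sense gene that rose, chosen after their values were seen, and neither antisense change passed the test.

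In the single resistances 0 antisense and 0 sense genes passed for low imatinib and for high imatinib, where 0% of all genes passed either. At an unadjusted p under 0.05 there were 41 antisense (13.1%) and 60 sense genes (19.9%) for low imatinib, against 21.6% of all genes, and 39 (12.5%) and 41 (13.6%) for high imatinib, against 15.2% (limma). For nilotinib PCED1B and PCED1B-AS1 fell and CCNT2 rose by 0.98 ± 0.12, against 0.39% of all genes higher and 0.0537% lower. No member differed between the resistances in the 3 comparisons of one with another by limma, with 2.24% to 3.51% of antisense genes and 3.97% to 5.30% of sense genes at an unadjusted p under 0.05, against 4.85% to 6.91% of all genes.

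The antisense genes were examined as a group beside the sense genes and all genes. The median log2 change was -0.15 for antisense genes, 0.01 for sense genes and -0.03 for all genes, and 25.2% of antisense genes had a change above 0 against 50.7% of sense genes and 47.6% of all genes. In 90 antisense genes (28.8%) all 6 lines were below both naive sets, and in 12 (3.83%) all were above. For sense genes the numbers were 56 (18.5%) and 48 (15.9%), and over all genes 15.9% were below and 17% above.

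The change moved with the brightness of the feature in every class of gene. At mean levels of 5 to 6, where 132 of the antisense genes lay, the median change was -0.18 for antisense genes, -0.15 for 77 sense genes and -0.17 for all genes. At levels of 7 to 8 it was 0.16 for 21 antisense genes, 0.23 for 59 sense genes and 0.30 for all genes. The median mean level was 5.86 for antisense genes, 6.52 for sense genes and 6.49 for all genes. Brightness depends on the probes, so these levels do not compare amounts of RNA between genes.

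Pair by pair, the signs of the changes gave little order. Both partners were lower in 126 pairs and both higher in 52, and in 108 pairs the antisense gene was lower and the sense gene higher, with the reverse in 27. Signs matched in 178 of 313 pairs, or 56.9%, and in 56.6% of 14578 pairs of adjacent named genes. Adjacent genes were taken as a description of neighbours in general, with no limit on distance. The antisense change exceeded the sense change with an interval above 0 in 13 pairs and fell short of it with an interval below 0 in 64. These intervals were not adjusted over the 313 pairs, and no such count was made for adjacent genes. Antisense features were dimmer than sense features, and the part of brightness in these counts was not tested. The median difference was -0.15.

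**Figure D2:**
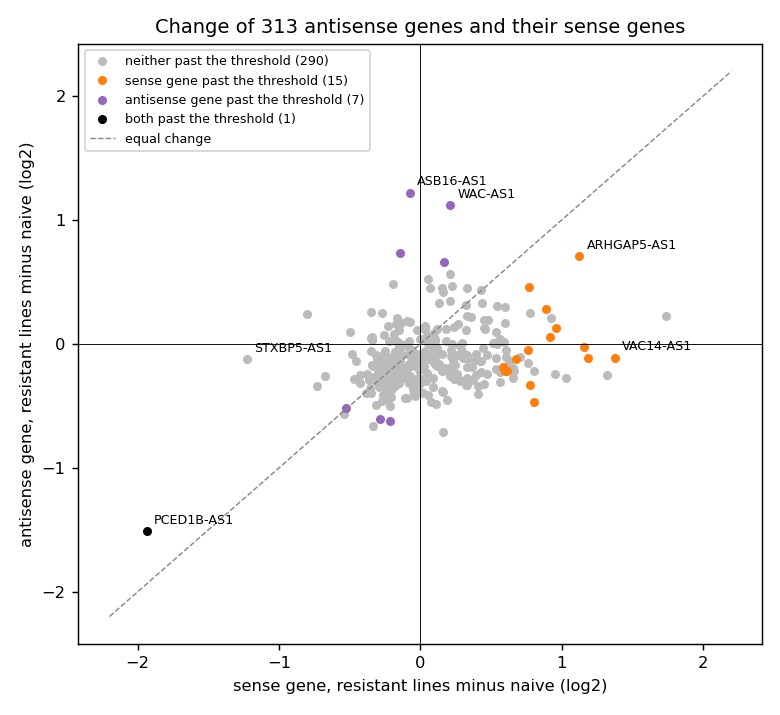
Log2 change of each antisense gene (vertical) against that of its sense gene (horizontal), mean of the 6 resistant lines minus the mean of the naive sets, for 313 pairs, with colours for genes past an adjusted p of 0.05 and a dashed line of equal change. The PCED1B pair, the only one with both genes past the threshold, lies at the lower left. Coloured points away from both axes include the pairs of ARHGAP5 (sense 1.13, antisense 0.71), UNC5B (-0.53 and -0.52) and SMAD5 (0.81 and -0.47).

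Across the 8 sets the r of an antisense gene with its sense gene had a median of 0.35, with quartiles of -0.05 and 0.65 and a range of -0.94 to 0.99. It was above 0.7 in 66 pairs (21.1%) and below -0.7 in 10 (3.19%). Adjacent named genes had a median of 0.24, with 17.0% above 0.7 and 3.54% below -0.7. Over the 6 resistant lines alone the median of the antisense pairs was 0.37. Over the deviations of single arrays from their set means, which hold no difference between cells, it was 0.05, and with the technical axis taken out it was 0.28. All pairs share the same 8 points, so these are descriptions with no test.

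Pairs whose start sites lay within 1 kb had a median r of 0.55, with 30.2% above 0.7. Pairs in which the antisense gene started further inside had a median of 0.35, with 19.3% above 0.7, and the 97 pairs not classed had 0.27. Where both genes spanned 1 log2 unit or more over the sets the median was 0.51, against 0.63 for 1017 pairs of adjacent genes of the same span. A span of that size was reached by 7.99% of antisense genes, 25.8% of sense genes and 23.5% of all genes.

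**Figure D3:**
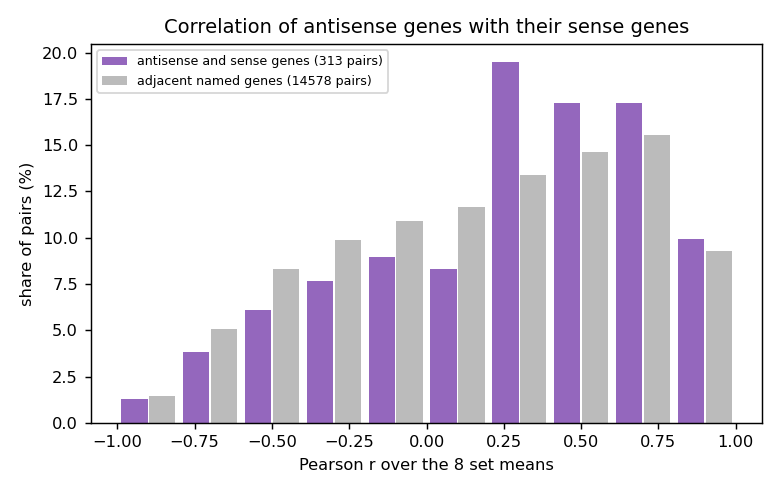
Share of pairs (vertical, in percent) by Pearson r over the 8 set means (horizontal, in steps of 0.2) for 313 antisense and sense pairs and 14578 pairs of adjacent named genes. Antisense pairs are more frequent than adjacent genes in every step above 0.2 and less frequent in every step below it.

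The sense gene was seldom the gene most like its antisense RNA. Ranked by r among 14883 genes, the sense gene had a median rank of 4143, at 27.8% of the genes. It was in the first 1 percent in 18 pairs (5.75%) and in the last 1 percent in 2. It was among the first 100 in 15 pairs and was first in 1. That pair was DPP10 and DPP10-AS1, named here after its value was seen, with r = 0.99. DPP10, an auxiliary protein of potassium channels, was highest in nilotinib line 1 at 5.88 and next in high-imatinib line 2 at 5.57, and the other 6 sets lay between 5.11 and 5.36. DPP10-AS1 stood at 6.68 and 6.12 in those lines and between 5.45 and 5.75 elsewhere. Without the 2 sets farthest from the median of DPP10-AS1 the r was 0.89.

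In 9 pairs both genes spanned 1 log2 unit or more. The highest r among them beside PCED1B were those of SOCS2, ARHGAP5, STXBP5 and STEAP1B, the last with 0.51, and the lowest were those of THAP7 (0.39), CCDC18 (0.34), AFAP1 (0.27) and SH3BP5 (-0.22). SOCS2, a feedback inhibitor of cytokine signalling and a known STAT5 target, stood at 7.67 and 7.45 in naive cells, 7.28 and 6.78 with low imatinib, 6.27 and 6.67 with high imatinib, and 7.78 and 6.19 in the nilotinib lines. SOCS2-AS1 stood at 7.11, 7.07, 6.93, 6.63, 6.55, 6.65, 7.52 and 6.21 in the same order. Both were highest in nilotinib line 1 and lowest in nilotinib line 2, with r = 0.95 over the 8 sets and 0.96 over the 6 lines. SOCS2 was at rank 11 of 14883.

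ARHGAP5 stood at 6.32 and 6.46 in naive cells and at 7.79, 7.50, 7.38, 7.27, 7.87 and 7.29 in the lines. ARHGAP5-AS1, with a start 605 bases away on the other strand, stood at 6.47 and 6.56 and at 7.53, 6.98, 7.16, 6.98, 7.74 and 6.95. All lines were above both naive sets for each gene, and r was 0.93 both over the 8 sets and over the 6 lines. ARHGAP5 rose by 1.13 ± 0.17 (limma adjusted p = 0.0352), and ARHGAP5-AS1 changed by 0.71 ± 0.24 (adjusted p = 0.111). With the technical axis out ARHGAP5 changed by 0.73 and did not pass (limma adjusted p = 0.170).

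STXBP5, the SNARE regulator tomosyn, had the widest spread of these. It stood at 9.86 and 9.38 in naive cells and at 7.98, 6.82, 10.1, 6.48, 9.25 and 9.70 in the lines. STXBP5-AS1, which starts 197 bases into it, moved over a smaller range, with 5.36 and 5.22 in naive cells and 5.06, 4.85, 5.86, 4.93, 5.03 and 5.29 in the lines. Both were highest in high-imatinib line 1, and the lowest 2 values of each were those of low-imatinib line 2 and high-imatinib line 2. Pearson r was 0.78 and the Spearman rank correlation 0.95.

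**Figure D4:**
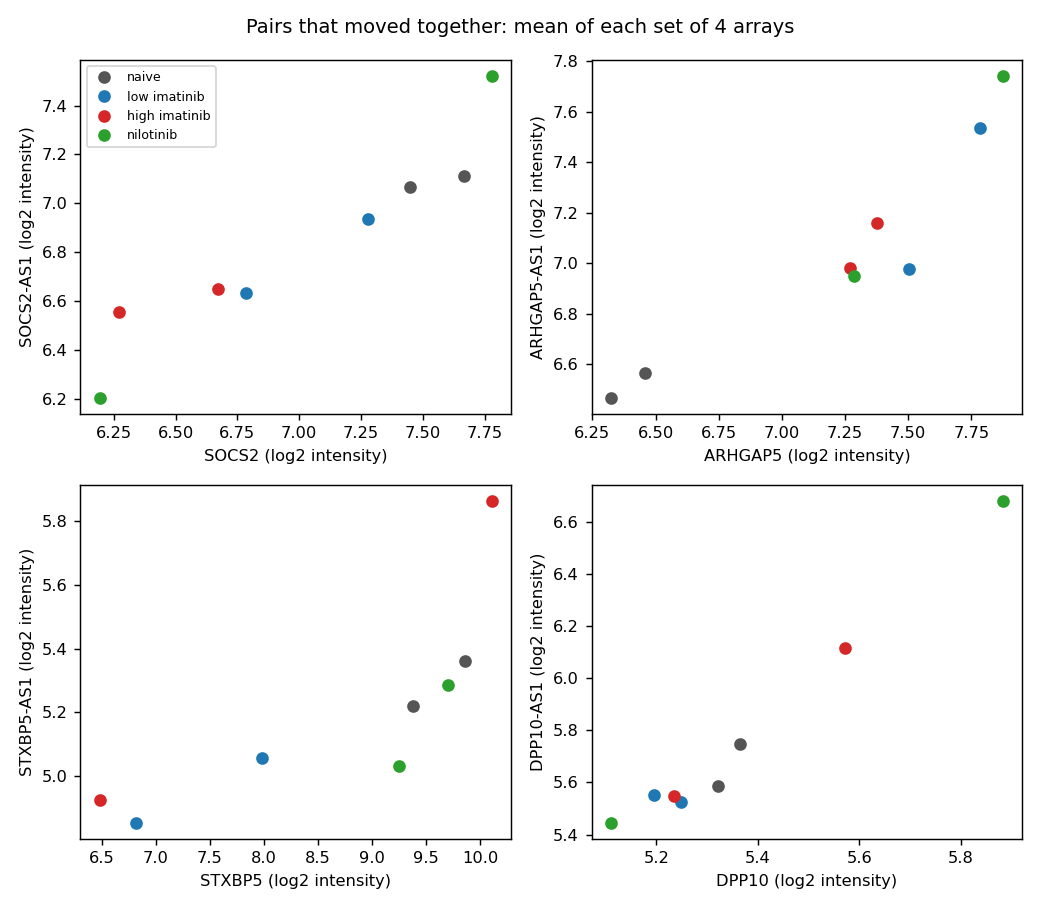
Mean log2 intensity of the antisense RNA (vertical) against its sense gene (horizontal) in each of the 8 sets, coloured by group, for SOCS2, ARHGAP5, STXBP5 and DPP10. Points rise from lower left to upper right in all 4 panels, and lines of the same resistance lie far apart in the SOCS2, STXBP5 and DPP10 panels.

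Line 1 and line 2 of the same resistance were compared on the 32 arrays, against technical spread only. Between the high-imatinib lines 56 of 313 antisense genes and 108 of 302 sense genes differed at an adjusted p under 0.05, against 33% of all genes (limma). Between the nilotinib lines it was 61 and 91, against 27.6% of all genes, between the low-imatinib lines 40 and 67, against 18.7%, and between naive S and K 23 and 33, against 12.4%. As shares, antisense genes were at 17.9%, 19.5%, 12.8% and 7.35%.

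Where both partners passed, they mostly moved the same way. This held for 12 of 12 pairs in low imatinib, 26 of 28 in high imatinib, 20 of 23 in nilotinib and 3 of 4 between the naive sets. The shares for adjacent named genes that both passed were 80.5%, 72.0%, 76.0% and 64.3%. Antisense and sense partners sit at 1 locus, as adjacent genes do, and pairs at nearby loci are not independent of each other.

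The largest joint differences were those of CCDC18 between the high-imatinib lines and of SOCS2 between the nilotinib lines, the single pairs where both partners differed by 1 log2 unit or more. CCDC18, a coiled-coil protein, was lower by 1.33 ± 0.11 in line 2 and CCDC18-AS1 by 1.14 ± 0.14 (limma on 32 arrays). SOCS2 was lower by 1.58 ± 0.10 in nilotinib line 2 and SOCS2-AS1 by 1.32 ± 0.11. STXBP5 was lower by 3.63 ± 0.09 in high-imatinib line 2 and its antisense RNA by 0.94 ± 0.10.

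In several pairs a large difference of the sense gene stood beside a smaller one of the antisense gene. The features differ in brightness, and a dim one can understate a difference, so the sizes are not set against each other. EPB41L4A, a FERM-domain protein, was 3.26 ± 0.15 higher in nilotinib line 2 than in line 1, and EPB41L4A-AS1 was 0.79 ± 0.13 higher. In this pair the antisense feature was the brighter one, with a mean level of 8.09 against 6.81 for EPB41L4A. It was the dimmer one in the ELOVL2, POPDC1 and EIF1B pairs below. The part of brightness in these differences was not tested. ELOVL2, an elongase of polyunsaturated fatty acids, was 2.51 ± 0.11 higher in high-imatinib line 2, and ELOVL2-AS1 0.35 ± 0.13. POPDC1, a cAMP-binding membrane protein, was 2.65 ± 0.10 higher in that line, and POPDC1-AS1 0.58 ± 0.11. The POPDC1 pair, with starts 530 bases apart, and the pair of the initiation factor EIF1B, with starts 9 bases apart, were named after their values were seen. EIF1B was lower by 1.11 ± 0.14 in nilotinib line 2 and EIF1B-AS1 by 0.86 ± 0.15.

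**Figure D5:**
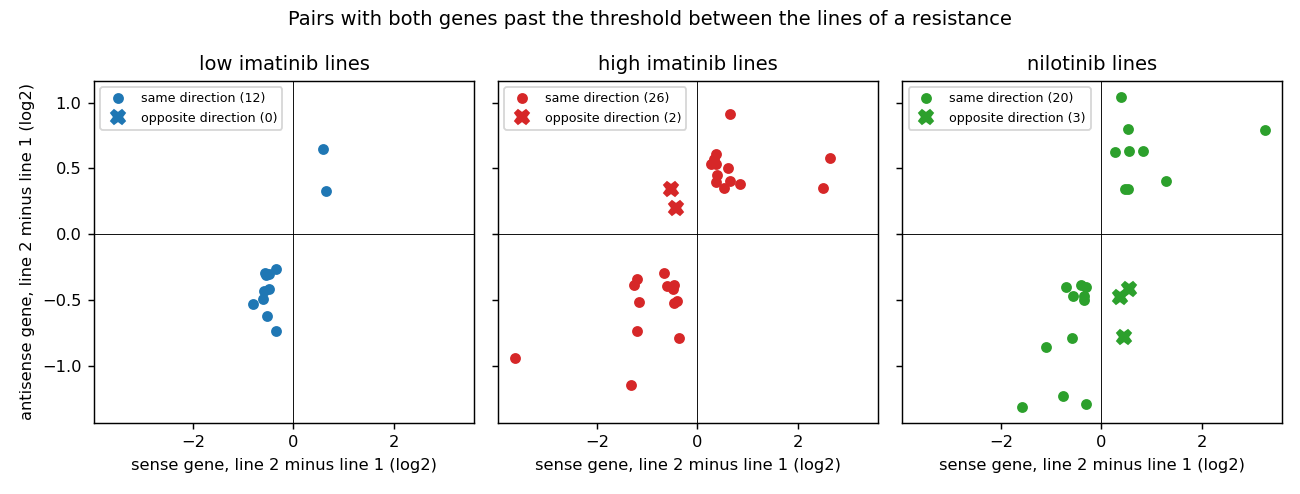
Difference between line 2 and line 1 (log2) of the antisense gene (vertical) and the sense gene (horizontal) for pairs in which both passed an adjusted p of 0.05, by resistance. Of 12, 28 and 23 pairs, 12, 26 and 20 lie in the quadrants of equal sign, and crosses mark the rest.

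The 6 exceptions moved apart. Between the nilotinib lines SH3BP5, an exchange factor for Rab GTPases, was 0.45 ± 0.11 higher in line 2 while SH3BP5-AS1 was lower by 0.78 ± 0.12. ALOX12 was 0.55 ± 0.12 higher with ALOX12-AS1 lower by 0.42 ± 0.13, and PM20D1, a secreted peptidase, 0.37 ± 0.12 higher with PM20D1-AS1 lower by 0.48 ± 0.14. Between the high-imatinib lines USP3, a histone deubiquitinase, was lower by 0.53 ± 0.11 in line 2 with USP3-AS1 0.35 ± 0.11 higher, and ASMTL was lower by 0.43 ± 0.12 with ASMTL-AS1 0.20 ± 0.08 higher. Between the naive sets LHX4, a LIM homeobox factor, was 0.46 ± 0.15 higher in K with LHX4-AS1 lower by 0.37 ± 0.11. LHX4 and LHX4-AS1 also had the lowest r of any pair, -0.94 over the 8 sets and -0.82 over the 6 lines. Without the 2 sets farthest from the median of LHX4-AS1 the r was -0.64. Their set means spanned only 0.51 and 0.50 log2 units, and LHX4 averaged 4.90, below the median of every array.

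Some antisense RNAs differed between lines with a smaller measured difference in the partner, and these were picked after their values were seen. A dim partner can understate its own difference, as said above. FBXL19, however, was brighter than its antisense RNA, with mean levels of 7.40 and 6.22. FOXD2-AS1 stood at 9.03 in high-imatinib line 1 and 7.52 in line 2, a fall of 1.52 ± 0.10, while FOXD2, a forkhead factor, stood between 5.31 and 5.73 in all sets. VPS9D1-AS1 was 1.34 ± 0.11 higher in high-imatinib line 2, and VPS9D1 stood between 6.20 and 6.70 throughout. FBXL19-AS1 stood at 7.08 in nilotinib line 1 and 5.37 in line 2, lower by 1.71 ± 0.14, beside a range of 7.22 to 7.58 for FBXL19. TSPEAR-AS2 stood at 7.93 and 6.64 in the nilotinib lines, lower by 1.29 ± 0.16.

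Pairs that differed most in their change against naive cells were again led by the sense gene. ELOVL2 changed by 1.32 ± 0.64 and EPB41L4A by 1.74 ± 0.77, neither past the test, with lines that overlapped the naive sets, and their antisense RNAs changed by -0.25 and 0.22. STARD4, a carrier of cholesterol, stood at 7.03 and 7.06 in naive cells and between 7.61 and 8.55 in the lines, a change of 1.03 ± 0.23 (limma adjusted p = 0.0558). STARD4-AS1, with its start 309 bases into the gene, changed by -0.28 ± 0.14.

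Genes of RNA decay and RNA 3′ end formation were read beside the members, because such factors are known to limit many antisense RNAs. Of 18 measured genes of the nuclear exosome and its cofactors 3 were higher and 0 lower in the resistant lines, against 3.21% and 0.504% of all genes. EXOSC3, a cap subunit of the exosome, rose by 0.90 ± 0.14 (limma adjusted p = 0.0348), TENT4A, a nuclear poly(A) polymerase, by 0.71 ± 0.12, and SRRT, which links the cap-binding complex to decay, by 0.58 ± 0.11. The list's median change was 0.38, against -0.03 for all genes. Its median level was 8.14, however, and all genes at levels of 8 to 9 had a median change of 0.42.

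Of 11 genes of cleavage, polyadenylation and the U1 snRNP, 1 was higher and 0 were lower, against 3.21% and 0.504% of all genes. It was RBBP6, a cleavage factor with ubiquitin ligase activity, which rose by 1.08 ± 0.19 (limma adjusted p = 0.0391). The list's median was 0.57 at a median level of 8.78. Of 8 genes of double-stranded RNA processing and sensing 0 passed. At an unadjusted p under 0.05 (limma) there were 4, against 29.8% of all genes, and the median was 0.36 at a median level of 8.33. All genes at levels of 8 to 9 had a median change of 0.42. With the technical axis out 12 of all 14884 genes passed in this comparison.

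Grouped by symbol prefixes, the 24 sense genes of transcription and chromatin had 3 that were higher (SMAD5, PAXIP1 and ZNF566), against 3.21% of all genes, and a median change of 0.19, and their 28 antisense genes had 1 higher (ZNF674-AS1) and a median of -0.10. Of 9 sense genes picked by prefixes meant for the cell cycle, replication and repair, CCNT2 and TMPO were higher, and the median change was 0.22 for the sense genes and 0.02 for their 9 antisense genes. CCNT2 acts in transcription elongation and TMPO at the nuclear lamina, so the group's name does not describe the genes that rose. A prefix list meant for transport and metabolism had 11 antisense and 10 sense genes, of which PCED1B and PCED1B-AS1 passed. That list's name also fails to describe its members, which include PCNA, PCDH9 and PCGF3, genes of replication, adhesion and chromatin.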

How the data were processed

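RNA (100 ng per array) was labelled with the GeneChip WT PLUS kit, per the labels' protocols. The authors deposited 1 value per feature and array, taken here as log2 of summarised intensity from its range, with Transcriptome Analysis Console 4.0 as the tool in the submitters' processing notes. Normalization and genome build are not given in the sources used here. Of 53617 features 16098 carried 1 gene symbol and 37519 none. A gene was represented by the feature of highest mean over the 32 arrays, which gave 14884 genes.

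Arrays of a set were averaged. The 8 set means entered a limma fit (version 3.58.1, R 4.3.3) of the 4 groups, leaving 4 residual degrees of freedom, with Benjamini-Hochberg adjustment over all 14884 genes and a threshold of 0.05. The all-resistant contrast weighted the 6 lines equally. Lines of a resistance were compared on 32 arrays (24 residual degrees of freedom). Errors are standard errors. Intervals of antisense minus sense changes are 95% intervals from the spread of the difference within groups, not adjusted for the number of pairs. The number of sets, not depth, limits precision. The tests were tried on simulated data.

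The text names the PCED1B pair, the members past the threshold (sense genes in full from a log2 change of 1), the 5 pairs of highest and lowest r among those spanning 1 log2 unit, the 5 largest antisense minus sense differences, the 5 genes most like PCED1B-AS1 and up to 3 members of each list. Others are said to be named afterwards. Members and lists were chosen with earlier results of these data known. Alternatives were quantile normalization, a common array median, leaving out the dimmest 40% of genes, other handling of features, removal of the technical axis, a random block per set, only the groups compared, a replicate block and leaving out each set.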

Additional observations from a re-analysis of the deposited data

Results flagged for a closer look

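In 6 of 72 named genes a single resistant line stood apart from the other 5 in its log2 change against the naive mean, by a gap to the nearest line larger than Dixon's 95% critical share of the whole range. Such gaps arise by chance in about 1 in 20 groups of values taken without selection. Some of these genes were named for wide spans, extreme r or large differences, or after their values were seen. That rate is therefore no reference for the count of 6. AFAP1, an actin-binding protein, was at 0.97 in high-imatinib line 1, with the others between -0.64 and -0.22, and AFAP1-AS1 was 0.34 ± 0.13 higher in that line than in high-imatinib line 2. CCDC18 was at -0.26 in high-imatinib line 2, with the others between 0.62 and 1.07. POPDC1 was at 2.42 in high-imatinib line 2, with the others between -0.23 and 0.58. STEAP1B-AS1 was at 0.52 in nilotinib line 1 and between -0.52 and -0.33 in the others. WAC was at 0.53 in high-imatinib line 1, with the others between 0.11 and 0.20, while WAC-AS1 was 0.03 ± 0.11 higher in line 2 than in line 1 there. TSPEAR was at -0.42 in nilotinib line 2 and between -0.22 and -0.11 in the others.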

How the results depend on the processing

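The count of 24 members past the threshold against naive cells was 15 with quantile normalization, 44 with a common array median, 0 with every feature of the array tested (more tests), 2 with the technical axis taken out and 113 with each set as a random block over 32 arrays, and ran from 0 to 53 when 1 set was left out. For low imatinib (0 calls) it was 11 with the common median, 70 with the random block and 52 with only the groups compared, and 0 to 23 with 1 set left out. For high imatinib (0) it was 50 with the random block and 0 to 5 with 1 set left out. For nilotinib (3) it was 37 with the common median, 108 with the random block, 0 with quantile normalization, with every feature, with the technical axis out and with only the groups compared, and 0 to 34 with 1 set left out. Between resistances the random block gave 12, 11 and 4 calls for high minus low imatinib, nilotinib minus low and nilotinib minus high imatinib, against 0, and leaving out 1 set gave 0 to 6, 0 to 0 and 0 to 1. Between the naive sets the count of 56 was 90 with the technical axis out and 96 after quantile normalization. Of all 14884 genes 1840, 2871 and 2990 passed there. Against naive cells 553 of all genes passed, beside 24 of 615 members, with 1677 under the common median and 3660 under the random block. For low imatinib all genes gave 172 and 2672 in those settings, and 1990 with only the groups compared. For nilotinib all genes gave 1615 and 3696, and for high imatinib the random block gave 1679. Between the resistances the random block gave 413, 550 and 201 of all genes, in that order. PCED1B (-1.94) and PCED1B-AS1 (-1.51) kept their values and lost the threshold with every feature tested, and ran from -2.35 to -1.52 and from -1.60 to -1.42 with 1 set left out. The median r of 0.35 was 0.28 with the technical axis out, 0.32 after quantile normalization, 0.26 as the Spearman rank correlation, 0.37 over the 6 lines and 0.32 to 0.37 with 1 set left out. The cause of these shifts was not tested where the setting itself does not give it.

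Across genes, deviations of line 1 from its group mean correlated between resistances at 0.139, 0.188 and -0.201. These values cannot settle whether lines of the same number belong together, and the main fit did not pair them. With the line number as a replicate block there were 24 calls, 20 of them shared, 5 for nilotinib, and a median r of 0.38. Over all genes this block gave 653 calls, and 104 for nilotinib.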

Other observations

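Other transcripts named after a host gene were measured too. For 67 divergent transcripts (symbols ending in -DT) the median r with the host gene over the 8 sets was 0.40, for 19 intronic transcripts (-IT) 0.60, for 7 transcripts ending in -AS -0.11 and for 3 ending in -OT 0.25, beside 0.35 for the antisense pairs. These medians are descriptions over the same 8 points. Between the high-imatinib lines 14 of 16 transcripts of these 4 kinds that passed together with their host moved in its direction, and between the nilotinib lines 9 of 11.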
